A study of Homo sapiens with 32 samples.

Results

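Kinesins are the motor proteins that walk along microtubules or take them apart, and the genes described here are the protein-coding RefSeq genes named KIF with a number and an optional A, B or C, together with KIFC1, KIFC2 and KIFC3. The rule took 42 of the 20056 protein-coding genes of the table, by symbol alone. By known role, 16 were placed in a mitotic list and 15 in a transport list. The remaining 11, with roles in cilia, signalling or microtubule dynamics or a role not settled, were kept apart as other kinesins. The m6A modification of RNA (N6-methyladenosine) was profiled by antibody enrichment and sequencing (MeRIP-seq) of chromatin-associated RNA freed of ribosomal RNA. The cells were A375, an established human melanoma line. The 2 knockdown libraries (replicates 1 and 2 of shMETTL3) came from cells in which a short hairpin RNA targets METTL3, the enzyme that places most m6A on mRNA, and carry the genotype label METTL3 knockdown. The 2 control libraries (replicates 1 and 2 of shControl) came from cells with a control hairpin and carry the label WT. The labels name a single hairpin per group, so effects of the hairpin other than through METTL3 cannot be told apart from the knockdown, and the other 28 of the 32 samples are not analysed here.

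Mitotic kinesins build the bipolar spindle, move and align chromosomes and organise the midzone where the cell divides, and most of them are made in quantity only in dividing cells. Most transport kinesins carry vesicles, mitochondria and endosomes outward along microtubules, and several transport kinesins are used mainly in neurons. The METTL3 complex methylates adenosines in a short sequence context with the core GGAC while RNA is still on chromatin, and in mature mRNA the mark is dense near stop codons and in long internal exons.

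A list of called peaks stands for each library, with 44108 and 42969 peaks in knockdown replicates 1 and 2, against 45345 and 47692 in control replicates 1 and 2. How deeply the libraries were sequenced is unknown. The labels do not say whether replicates were separate cultures, so their spread, and the p-values below, may be technical. METTL3, the targeted gene, had 5 peaks in each of the 4 lists, and peak lists do not measure how much of an RNA was present. Of 12 genes of melanocytes and melanoma, 5 had a peak in every list (MITF, PAX3, SOX9, AXL and NGFR), while SOX10 and the pigment genes PMEL, MLANA, TYR, TYRP1 and DCT had none. Of the 15 markers of keratinocytes, fibroblasts and leukocytes, 1 had a peak, KRT10 in both knockdown lists. In all that follows, fewer peaks in a gene and less of its RNA cannot be told apart.

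Peaks were found in 29 of the 42 kinesin genes (69.0%), against 53.5% of all protein-coding genes with a peak in any list. Mitotic kinesins had peaks in 14 of 16 genes, transport kinesins in 11 of 15 and other kinesins in 4 of 11. The members without a peak were KIF2B and KIF4B of the mitotic list; KIF1A, KIF5A, KIF13B and KIF17 of the transport list; and KIF6, KIF9, KIF12, KIF19, KIF25, KIF26A and KIF26B. KIF1A, KIF5A and KIF17 are motors best known from neurons, and KIF4B is an intronless copy of KIF4A, between which reads can be shared.

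Mitotic kinesin genes had fewer peaks, and transport kinesin genes more peaks, in both knockdown libraries than in either control library. Mitotic genes held 75 and 75 peaks in the knockdown lists, against 87 and 93 in the control lists. Transport genes held 60 and 61 in the knockdown lists, against 52 and 53 in the control lists. The groups of libraries did not overlap in either list: the mitotic counts were lower and the transport counts higher in both knockdown libraries. The mean difference, knockdown minus control, was -15 peaks in mitotic genes (75 ± 0 against 90 ± 4.24, SD, n = 2 each; exact two-sided permutation p = 0.333) and 8 peaks in transport genes (60.5 ± 0.707 against 52.5 ± 0.707, SD, n = 2 each; exact permutation p = 0.333). The control lists are longer, and with every list cut down to equal length by −log10 q the differences were -8 peaks in mitotic and 10 in transport genes, still with no overlap. With only peaks of a fold of at least 4 they were -5 and 4, and the mitotic counts of the groups then overlapped (exact permutation p = 0.667). With 2 against 2 libraries 0.333 is the smallest p that the test allows, so neither difference can pass a test at the usual threshold. Mitotic genes held 48.7% and 49.0% of all kinesin peaks in the knockdown lists, against 53.0% and 54.1% in the control lists (difference -4.70 percentage points; exact permutation p = 0.333). Other kinesins had 19 and 17 peaks in the knockdown lists, against 25 and 26 in the control lists. All kinesin genes together held 154 and 153 peaks in knockdown, against 164 and 172 in control. The difference was -14.5 peaks (exact permutation p = 0.333), and -5.5 with lists of equal length (exact permutation p = 0.333). With only peaks of a fold of at least 4 it was also -5.5, and the counts of the groups then overlapped. The mitotic share then differed by -3.05 percentage points, again with overlap (exact permutation p = 0.667). The design set out tests of the count of all kinesin peaks and of the mitotic share, not separate tests of mitotic and transport counts. Relative to the length of the lists, mitotic genes held 1.70 and 1.75 of every 1000 peaks in knockdown and 1.92 and 1.95 in control, transport genes 1.36 and 1.42 in knockdown and 1.15 and 1.11 in control, and all kinesin genes 3.49 and 3.56 in knockdown and 3.62 and 3.61 in control.

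**Figure D1:**
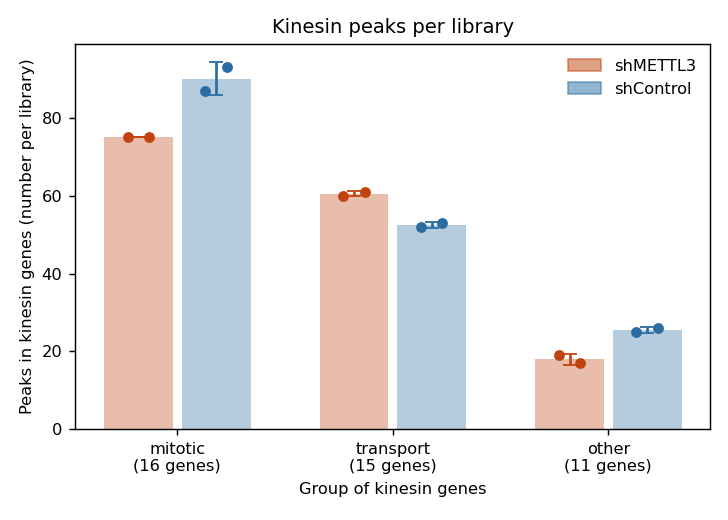
Number of peaks with a summit in mitotic, transport and other kinesin genes (vertical axis) in each library; bars are means, points the 2 libraries of a group and error bars the SD, with shMETTL3 left of shControl. Mitotic genes had 75 and 75 peaks in knockdown against 87 and 93 in control, and transport genes 60 and 61 against 52 and 53.

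Among single genes the difference in peak number was uneven, and a few members differed most. The mean was lower in the knockdown lists in 10 of the 14 mitotic genes with a peak and higher in 2, KIF2A and KIF18A. In the transport list it was higher in 8 of 11 genes and lower in 2, KIF5B and KIFC2. The same counts were not made over all protein-coding genes, and the control lists are longer, so these have no baseline. Differences ran from -4.5 peaks (KIF2C) to 3 (KIF2A) in mitotic genes and from -3 (KIF5B) to 3.5 (KIF1B and KIF3B) in transport genes. After KIF2C came KIF18B (-3.5) and KIF14 (-2.5), and the remaining mitotic genes with a lower mean differed by -2 to -0.5. After KIF1B and KIF3B came KIF1C (2), and the remaining transport genes with a higher mean differed by 0.5 to 1. A stricter count took genes in which both knockdown lists lay below, or above, both control lists. By that rule, which was set after the values were seen, 8 kinesin genes had fewer peaks (27.6% of 29, against 24.4% of all 10735 protein-coding genes with a peak) and 5 had more (17.2%, against 19.4%). These shares are near those of all genes. The genes with fewer were KIF14, KIF15, KIF18B and KIF2C of the mitotic list, KIF5B and KIFC2 of the transport list, and KIF7 and KIF27. Those with more were KIF2A of the mitotic list and KIF1B, KIF1C, KIF3B and KIF13A of the transport list. In KIF1C, KIF2A, KIF13A, KIF14, KIF15 and KIF27 the closest lists of the groups were a single peak apart.

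**Figure D2:**
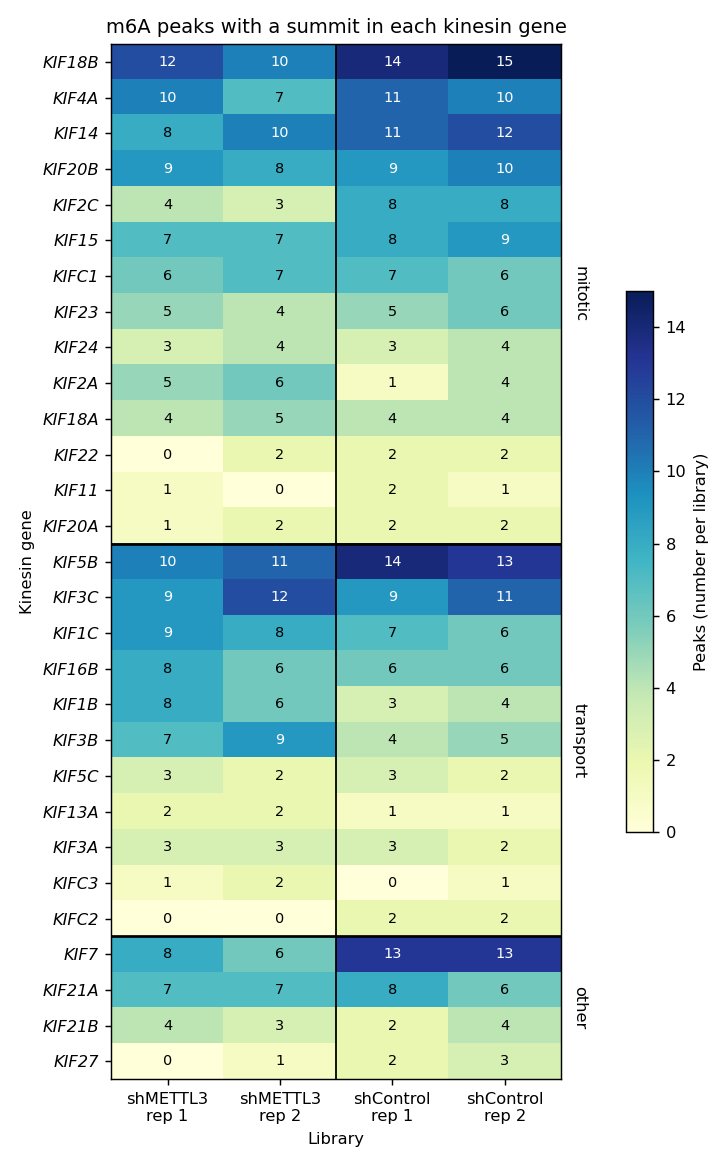
Peaks with a summit in each of the 29 kinesin genes with a peak (rows, grouped as mitotic, transport and other) in each library (columns, shMETTL3 left of shControl); the number and the colour give peaks per library. KIF2C had 4 and 3 peaks in knockdown against 8 and 8 in control, and KIF3B 7 and 9 against 4 and 5.

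Overlapping peaks of the 4 lists (1 bp or more, same strand) were joined to loci, which gave 233 loci in kinesin genes. Of these, 86 were in all 4 lists, 39 in 3 lists, 17 in 1 list of each group and 60 in a single list. A locus was called control-only where both control lists, and neither knockdown list, had a peak, and knockdown-only in the reverse case. Knockdown-only calls numbered 13 of the 111 kinesin loci in both knockdown lists (11.7%; exact binomial 95% interval 6.39% to 19.2%), against 18.9% of all loci and 18.6% of loci in protein-coding genes. Control-only calls numbered 18 of the 131 kinesin loci in both control lists (13.7%; 8.35% to 20.8%), against 22.6% of all loci and 21.9% of loci in protein-coding genes. Of loci on a gene's own strand, 13 of 106 were knockdown-only (12.3%) and 15 of 124 control-only (12.1%). The strands of KIF21B, KIF27, KIFC2 and KIFC3 were taken from their own loci, so these loci counted as own-strand by construction. Intervals cover counting error only, and loci of a gene are not independent of each other.

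Kinesin-8 motors walk to microtubule plus ends and limit their growth, KIF18A at kinetochores and KIF18B on astral microtubules. KIF18B was the densest kinesin gene, with 17 loci in 23063 bp on the minus strand of chromosome 17 (7.37 loci per 10 kb), 9 of them in all 4 lists. Its peaks numbered 12 and 10 in the knockdown lists, against 14 and 15 in the control lists, with no overlap. The best-ranked shared locus of the gene, by the lowest of its 4 folds, lay at 44928936 to 44929105 (hg38) with fold enrichments of 6.002 and 4.93 in knockdown and 8.27 and 5.55 in control. Here and below, a fold is the authors' value at the summit of a peak within its own list, given as a description. KIF18B had 2 control-only loci, at 44932703 to 44933089 (4.29 and 5.39 in control) and 44934336 to 44934742 (2.68 and 1.92), and 1 knockdown-only locus at 44927012 to 44927609 (4.02 and 3.83 in knockdown). The loci next to the control-only pair were found in 3 or 4 lists, so only part of this stretch lacked knockdown peaks. KIF18A had 4 and 5 peaks in knockdown and 4 and 4 in control. It held 1 knockdown-only locus (chromosome 11, 28085399 to 28085863; folds of 5.44 and 3.33) and kept 3 loci in all lists, the best at 28036241 to 28036760 with 6.57 and 7.86 in knockdown and 4.47 and 5.12 in control.

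Kinesin-13 motors do not walk but depolymerise microtubules: KIF2C does so at centromeres, where it releases faulty attachments, KIF2A at spindle poles and in neurons, and KIF24 at the centriole, where it restrains cilium formation. KIF2C and KIF2A differed in opposite directions. KIF2C had 4 and 3 peaks in knockdown against 8 and 8 in control, so that both knockdown lists lay below both control lists. Of the 4 KIF2C loci in both control lists 2 were control-only, at 44750380 to 44750543 on chromosome 1 (4.82 and 4.13 in control) and 44760235 to 44760397 (3.25 and 2.71). The other 2 stayed in all lists, with 2.87 and 3.999 in knockdown and 5.12 and 4.73 in control at the stronger one, 44762232 to 44762601. KIF2A had 5 and 6 peaks in knockdown against 1 and 4 in control. Of its 5 loci in both knockdown lists 3 were knockdown-only: 62325768 to 62325979 (chromosome 5; 3.20 and 3.53 in knockdown), 62335114 to 62335619 (5.56 and 5.77) and 62385730 to 62386004 (4.27 and 3.17). The middle one lies in the span of the pseudogene LOC100421358 inside KIF2A, and its assignment is uncertain for that reason. A locus at 62324341 to 62324924 was shared by all lists, with 5.56 and 6.86 in knockdown and 5.66 and 5.26 in control. KIF24 had 3 and 4 peaks in both groups. Its control-only locus lay 3608 bp from the gene end (chromosome 9, 34255978 to 34256257; 3.41 and 3.35 in control), a shared locus at 34310908 to 34311387 (5.44 and 4.20 in knockdown, 7.27 and 6.91 in control), and its knockdown-only locus at 34329093 to 34329277 (3.80 and 4.25 in knockdown).

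The knockdown-only locus of KIF24 covered an annotated transcript start at 34329268, which is inside the gene span. Peaks covered an annotated start in 3 of the 34 kinesin genes with a promoter sequence in the RefSeq table (GRCh38.p14). In KIF3C this was so in all 4 lists and in KIF2C in control replicate 2 only. The sequences around these starts are shown because they are the places where a peak can be set beside sequence, from 50 bases before the start to the 30th transcribed base, 5′ to 3′ on the gene's strand; capitals mark GGAC, so base 51 is the first transcribed one.
KIF24 (chr9:34329239-34329318, minus strand): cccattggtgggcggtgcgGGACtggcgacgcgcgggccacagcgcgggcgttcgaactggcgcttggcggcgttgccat
KIF2C (chr1:44739787-44739866, plus strand): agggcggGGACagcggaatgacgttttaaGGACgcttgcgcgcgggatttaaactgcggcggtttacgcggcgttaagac
KIF3C (chr2:25982468-25982547, minus strand): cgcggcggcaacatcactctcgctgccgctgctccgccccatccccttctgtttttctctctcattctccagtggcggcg
GGAC occurred 1 time in the window of KIF24, 2 times in that of KIF2C and 0 times in that of KIF3C, each time before the start, and its reverse complement GTCC occurred in none of the windows. Over 35116 promoter rows of the table, 26.1% held GGAC and 25.0% GTCC in the same 80 bases. None of these 3 genes held GGAC in its first 50 transcribed bases, where 18.9% of all rows did. The peak summits lay 58 bp (KIF2C), 72 and 136 bp (KIF24) and 1243 to 1934 bp (KIF3C) past the start. All were outside the printed bases, so the windows do not show the sequence at the summits. A match is only a match of letters, and the sequence under the other peaks was not used here.

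Chromokinesins bind chromosome arms and push them toward the spindle equator; KIF4A also sets the length of the midzone with PRC1, and KIF22 drives congression. KIF4A (X chromosome) had 10 and 7 peaks in knockdown and 11 and 10 in control, which overlap at 10. It had 2 control-only loci, at 70387086 to 70387239 (4.08 and 5.05 in control) and 70404611 to 70404767 (5.91 and 3.85), at 74.2% and 87.6% of the gene's length from its start. Of its 4 loci in all lists, the best-ranked stood at 70375125 to 70375306 with 7.38 and 7.77 in knockdown and 6.84 and 7.998 in control. KIF22 had 0 and 2 peaks in knockdown against 2 and 2 in control. Both of its loci of the control lists were control-only, 29798239 to 29798726 on chromosome 16 (4.04 and 3.43 in control) and 29804999 to 29805318, 371 bp from the gene end (2.80 and 2.22). The 2 peaks of knockdown replicate 2 lay elsewhere in the gene and were in no other list. KIF22 was the only 1 of 14 mitotic genes whose loci of both control lists were all control-only, and with KIFC2 it made 2 of 28 kinesin genes, while 7.84% of all protein-coding genes with such a locus were of this kind. The control-only loci of KIF22 numbered 1 with lists of equal length or a −log10 q of at least 20, and 0 with a fold of at least 4.

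In the motors of cytokinesis, 1 locus was called, in KIF14. KIF14, which works with citron kinase at the midbody, had 8 and 10 peaks in knockdown against 11 and 12 in control. It kept 7 loci in all lists and had 1 control-only locus (chromosome 1, 200598317 to 200598518; 5.16 and 3.87 in control). Its strongest shared locus lay 2085 bp from the gene end (200553294 to 200553855), with 8.45 and 6.30 in knockdown and 6.75 and 8.12 in control. KIF20B, a midbody motor, had 9 and 8 peaks in knockdown and 9 and 10 in control and neither kind of called locus. The best of its 5 shared loci, 1319 bp wide (chromosome 10, 89737281 to 89738599), had 6.37 and 7.27 in knockdown and 6.74 and 5.96 in control. KIF23, the motor of centralspindlin, had 5 and 4 peaks in knockdown against 5 and 6 in control, with 4 loci in all lists. KIF20A, which brings the chromosomal passenger complex to the midzone, had 1 and 2 in knockdown against 2 and 2 in control, with 1 such locus, 487 bp from its end.

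Bipolar spindles are pushed apart by KIF11, with KIF15 as its partner, while KIFC1 pulls inward and gathers surplus centrosomes. KIF11, the target of many antimitotic compounds, had 1 and 0 peaks in knockdown against 2 and 1 in control. Its locus at the gene start (chromosome 10, 92593200 to 92593413) had a fold of 11.4 in knockdown replicate 1 and no peak in replicate 2, against 11.4 and 7.81 in control. This and a KIF20B locus (89754397 to 89754598; 11.8 in knockdown replicate 1, 9.35 and 9.59 in control) were among the highest folds of any mitotic gene and yet were missing from knockdown replicate 2; they were singled out after their values were seen. KIF15 had 7 and 7 peaks in knockdown against 8 and 9 in control and 4 loci in all lists. KIFC1 had 6 and 7 in knockdown and 7 and 6 in control. It kept 5 loci in all lists, the best at 33403669 to 33404073 on chromosome 6 with 4.40 and 5.30 in knockdown and 4.79 and 4.97 in control, and had 1 control-only locus 1654 bp from its start (33392996 to 33393213; 3.09 and 3.41 in control).

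In the transport list, kinesin-1 is the main carrier of vesicles and mitochondria, with KIF5B as the heavy chain of most tissues. KIF5B differed in the opposite direction to its list, with 10 and 11 peaks in knockdown against 14 and 13 in control, no overlap. It had no called locus: 7 loci were in all lists, and each of the 11 loci in both control lists had a peak in at least 1 knockdown list. Its best shared locus (chromosome 10, 32034736 to 32034935) had 3.94 and 4.20 in knockdown and 6.88 and 6.19 in control. The summits of 7 KIF5B loci also lie in the span of a lncRNA gene, LOC107984219. KIF5C had 3 and 2 peaks in both groups and no locus in all lists.

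Kinesin-2, a pair of KIF3A with KIF3B or KIF3C, moves cargo in cilia and axons. KIF3B had 7 and 9 peaks in knockdown against 4 and 5 in control, with every knockdown value higher. Its locus at 32309722 to 32311142 on chromosome 20 had the highest fold among kinesin peaks in both knockdown lists, 12.2 and 10.3, against 9.30 and 8.17 in control, where it was not the highest. A knockdown-only locus stood at 32332205 to 32332504 (3.04 and 2.75 in knockdown), 2710 bp from the gene end and between 2 loci of all lists. KIF3A had 3 and 3 peaks in knockdown against 3 and 2 in control. KIF3C had 9 and 12 in knockdown and 9 and 11 in control, and no called locus among 15. Its 6 shared loci included the widest of all kinesin loci, 2466 bp over the start of the gene (25980145 to 25982610), where folds were 10.3 and 5.87 in knockdown and 4.55 and 4.38 in control. The summit in knockdown replicate 1 was 1243 bp from the start and those of the other lists at 1924 to 1934 bp, so the 10.3 belongs to another place in the locus. The best-ranked shared locus of KIF3C, 25956362 to 25956567, had 8.93 and 6.80 in knockdown and 8.60 and 5.66 in control.

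Kinesin-3 motors carry mitochondria and vesicle precursors (KIF1B), dense-core vesicles and integrins (KIF1C) and endosomes (KIF16B, and KIF13A, which brings melanosome cargo outward in melanocytes). KIF1B had 8 and 6 peaks in knockdown against 3 and 4 in control. It had 2 knockdown-only loci, 10305353 to 10305866 on chromosome 1 (4.12 and 2.26 in knockdown) and 10378245 to 10378530 (5.04 and 5.37). Each lay beside a wide locus of all lists, the better-ranked of which, 10378651 to 10379652, 2444 bp from the gene end, had 7.60 and 8.13 in knockdown and 6.004 and 5.30 in control. KIF1C had 9 and 8 peaks in knockdown against 7 and 6 in control and 5 loci in all lists, of which 5020364 to 5020828 on chromosome 17 had 4.23 and 5.09 in knockdown and 4.82 and 4.63 in control. It held 1 locus of each kind, knockdown-only at 5001112 to 5001263 (2.98 and 2.92) and control-only at 5007748 to 5008067 (2.46 and 2.78 in control). KIF16B had 8 and 6 peaks in knockdown and 6 and 6 in control, a knockdown-only locus (chromosome 20, 16526190 to 16526340; 2.96 and 2.58) and 4 shared loci, led by 16378810 to 16380291 with 4.77 and 10.2 in knockdown and 9.32 and 7.89 in control. KIF13A had 2 and 2 peaks in knockdown against 1 and 1 in control. The kinesin-14 members of the list had few peaks. KIFC2 had 0 and 0 in knockdown against 2 and 2 in control, both control-only (2.80 and 3.37, and 4.43 and 4.04 in control), the second also in the span of FOXH1. KIFC3 had 1 and 2 in knockdown and 0 and 1 in control, with a knockdown-only locus of low fold (chromosome 16, 57765433 to 57765721; 1.99 and 3.31).

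Of the other kinesins, KIF7, the Hedgehog pathway motor of the cilium tip, had 8 and 6 peaks in knockdown against 13 and 13 in control. Many of these were not on its own strand: KIF7 is on the minus strand of chromosome 15, and 7 of its 12 loci were on the plus strand, the strand of the neighbouring gene TICRR, which acts in replication initiation and whose span (89575469 to 89628023) reaches into that of KIF7. All 3 control-only loci of KIF7 were among these, at 89629478 to 89630095 (4.23 and 4.42 in control), 89630188 to 89630914 (3.94 and 3.62) and 89631721 to 89631935 (3.84 and 4.84), just beyond the annotated end of TICRR. The best-ranked shared locus in the span, 89623539 to 89625747, was on the plus strand too (11.1 and 5.63 in knockdown, 6.84 and 5.70 in control). On its own strand KIF7 had 4 and 2 peaks in knockdown against 6 and 5 in control, with no called locus. Only 2 further kinesin loci were on the opposite strand, in KIF18B and KIF3C. KIF21A, which limits microtubule growth at the cell cortex, had 7 and 7 peaks in knockdown against 8 and 6 in control and no called locus. KIF21B, a motor of neurons and lymphocytes, had 4 and 3 in knockdown and 2 and 4 in control, and its single locus of both knockdown lists was knockdown-only (chromosome 1, 200971172 to 200971695; 4.02 and 3.88). With KIFC3 it made 2 of 25 kinesin genes whose loci of both knockdown lists were all knockdown-only, against 9.08% of all protein-coding genes with such a locus. KIF27, a relative of KIF7, had 0 and 1 peaks in knockdown against 2 and 3 in control, with a control-only locus (chromosome 9, 83903465 to 83903634; 4.66 and 4.03 in control).

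**Figure D3:**
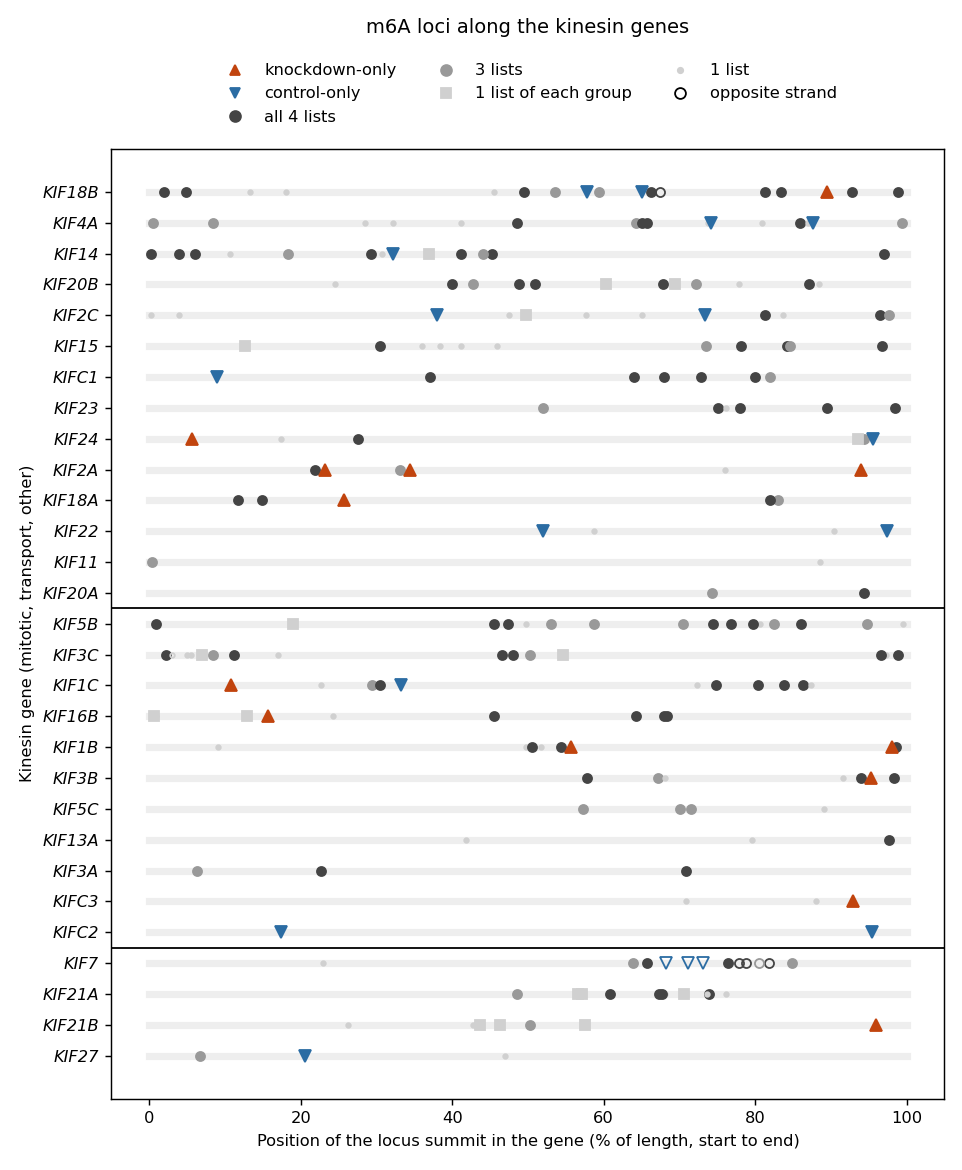
Position of each locus summit along its gene, in percent of the gene's length from start to end (horizontal axis), for the 29 kinesin genes with a peak; triangles up are knockdown-only, triangles down control-only, and open symbols lie on the opposite strand. The 3 control-only loci of KIF7 are all on the opposite strand, and KIF18B carries 17 loci.

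Set side by side, the mitotic and transport lists leaned to different sides in their called loci, at small numbers. Of mitotic loci, 6 of the 58 in both knockdown lists were knockdown-only (10.3%; exact interval 3.89% to 21.2%) and 11 of the 71 in both control lists were control-only (15.5%; 7.996% to 26.0%). Of transport loci, 6 of 42 were knockdown-only (14.3%; 5.43% to 28.5%) and 3 of 42 control-only (7.14%; 1.498% to 19.5%). The intervals of the lists overlap for both kinds of call. Each of the 4 shares was below that of all loci, 18.9% for knockdown-only and 22.6% for control-only, and the interval of the transport control-only share alone ended below it. Single genes held much of each count: KIF2A had 3 of the 6 mitotic knockdown-only loci and KIFC2 had 2 of the 3 transport control-only loci. The order of the knockdown-only shares was not stable: with peaks below a fold of 4 left out it was 21.7% in mitotic and 16.7% in transport genes, against 27.56% over all loci, and with a −log10 q of at least 20 it was 16.2% in mitotic and 12.5% in transport genes, against 19.17% over all loci. At that q limit the mitotic control-only share, 26.4%, lay above the 23.33% of all loci. Stricter role lists left out KIF2A, KIF2B, KIF4B and KIF24 among mitotic genes and KIF13A, KIF16B, KIFC2 and KIFC3 among transport genes. Of mitotic loci, 2 of 51 were then knockdown-only (3.92%) and 10 of 67 control-only (14.9%). Of transport loci, 4 of 35 were knockdown-only (11.4%) and 1 of 35 control-only (2.86%). KIF2A, KIF24, KIF16B, KIFC2 and KIFC3 held called loci themselves, so the stricter lists are no independent check. The control-only share was higher in mitotic than in transport genes in every alternative run. Leaving out any 1 library loosens the calls and raised every share. The mitotic control-only share was then 28.2% without knockdown replicate 1, 25.6% without control replicate 1 and 22.2% to 28.2% over the 4 cases, the transport one 11.8% to 18.6% and that of all loci 28.41% to 30.1%. The knockdown-only share was then 13.8% to 17.2% in mitotic genes, 20.9% to 25.4% in transport genes and 22.8% to 26.46% over all loci. The lower of the 2 control folds had a median of 3.85 in mitotic and 3.86 in transport loci found in both control lists, against 3.58 over all such loci, and the lower of the 2 knockdown folds 3.51 in mitotic and 3.79 in transport loci found in both knockdown lists, against 3.77 over all such loci.

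**Figure D4:**
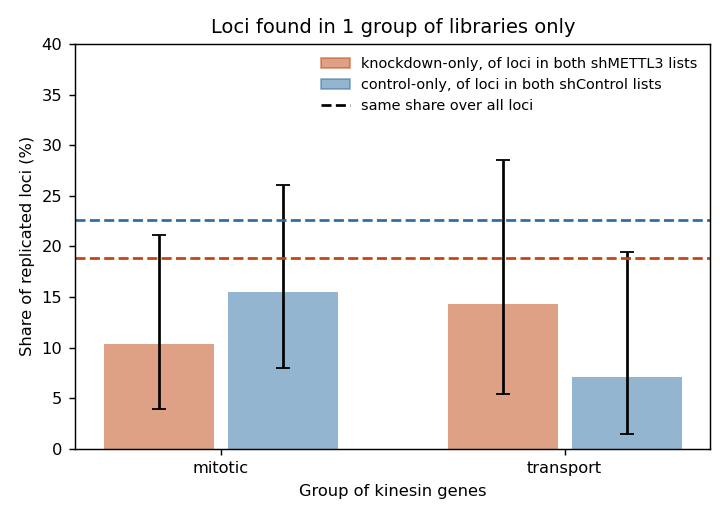
Share of loci that were knockdown-only, among loci in both shMETTL3 lists, and control-only, among loci in both shControl lists (vertical axis, percent), in mitotic and transport kinesin genes; error bars are exact binomial 95% intervals and dashed lines the shares over all loci. Mitotic genes had 10.3% and 15.5% and transport genes 14.3% and 7.14%, with wide intervals.

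The position and density of loci were as follows. Taken as all loci over the summed length of genes with a peak, mitotic genes carried 1.45 loci per 10 kb and transport genes 0.672. Long genes weigh most in such a value, and KIF16B held 9 loci in 301345 bp and KIF13A 3 in 228510 bp. No density or gene-end share over all protein-coding genes is given here. The median number of loci per gene was 6.5 in mitotic and 7 in transport genes, and the median gene length 65.8 kb in mitotic and 57.4 kb in transport genes. Loci in the last 2000 bp of the gene made up 7.63% of the mitotic and 7.50% of the transport loci on the gene's own strand. Over all kinesins, 15 of 224 own-strand loci were in this window, in 10 genes. Of the 9 gene-end loci in both knockdown lists none was knockdown-only, and of the 11 in both control lists 2 were control-only, those of KIF22 and KIFC2. Of interior loci, 13 of 94 were knockdown-only and 13 of 109 control-only, against 18.9% and 22.6% over all loci. The gene-end numbers are too small to be told apart from these. Median locus widths were 253 bp in mitotic and 251 bp in transport genes.

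Genes that work with kinesins gave the following counts, to be read against 18.9% knockdown-only and 22.6% control-only over all loci. Of all protein-coding genes, 53.5% had a peak in any list. The 14 spindle partners, among them CENPE (a kinesin without a KIF symbol), PRC1 and TPX2, all had peaks. Their peaks numbered 101 and 102 in knockdown against 117 and 125 in control. Of their loci, 5 of 78 were knockdown-only (6.41%) and 19 of 101 control-only (18.8%). PRC1, the midzone bundler that binds KIF4A, had 9 and 5 peaks in knockdown against 13 and 12 in control, with 4 control-only loci, and CENPE 26 and 31 in knockdown against 24 and 24 in control. Light chains and cargo adaptors had peaks in 13 of 16 genes, 55 and 50 in knockdown against 55 and 54 in control. Of their loci, 12 of 39 were knockdown-only (30.8%) and 10 of 42 control-only (23.8%). The mitochondrial adaptors of kinesin-1 differed from each other: TRAK1 had 9 and 8 peaks in knockdown against 2 and 3 in control, with 5 knockdown-only loci, and TRAK2 had 1 and 1 in knockdown against 5 and 5 in control, with 2 control-only loci. SPAG9, a scaffold that links kinesin-1 to signalling kinases, had 5 and 3 in knockdown against 11 and 14 in control and 6 control-only loci. Dynein and dynactin, the motor that runs the other way, had peaks in 19 of 25 genes, 97 and 88 in knockdown against 122 and 127 in control, with 5 of 73 knockdown-only (6.85%) and 22 of 101 control-only loci (21.8%). The dynein heavy chain gene DYNC1H1 alone had 27 and 22 peaks in knockdown against 39 and 40 in control. CENPE, PRC1, TRAK1, TRAK2, SPAG9 and DYNC1H1 were singled out after their values were seen.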

How the data were processed

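Peak lists of 4 m6A-enriched A375 libraries were used, 2 per group. Per the submitters' processing notes, MACS2 2.2.7.1, HISAT2 2.1.0, Bowtie2 2.4.2, Trim Galore 0.6.6 and SAMtools were used, with the build hg38; their roles, and the use of inputs and spike-in, are not given in the sources used here. Each peak's name, per the deposited files, carries a library and strand, so calling was per library and strand; names in the shMETTL3 lists begin koMETTL3, a mismatch with the labelled knockdown, and the labels were followed. The deposited fold enrichment is a ratio at the summit; p-values and q-values were deposited as −log10 values. The deposited score was not used.

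Peaks and loci were placed by summit in RefSeq gene spans (GRCh38.p14, the build hg38 names), on either strand; a locus took the summit of its strongest peak. Strands came from the promoter table for 34 genes and from the loci for 4. Exact permutation tests compared library values (SciPy 1.17.1, Python 3.11.15). No adjusted p was possible. The members, lists and roles were chosen with earlier results of these data known. The naming rule gave loci for members with a called locus and for the 8 with most loci in all lists; the other members are given by their peak numbers, and loci printed for them (KIF11, KIF20A) were chosen after their values were seen. The merging and calling were tested on simulated data. Replicate numbers share no stated source.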

Additional observations from a re-analysis of the deposited data

How the results depend on the processing

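Mitotic kinesin genes had fewer and transport genes more peaks in knockdown under every alternative run, with mean differences of -18 to -5 and 4 to 10 peaks. Without 1 library, or with the replicate block, this direction was fixed in advance, because the main counts of the groups did not overlap. Those runs are therefore no check of it. With a fold of at least 4 the mitotic counts of the groups overlapped (-5 peaks, exact permutation p = 0.667). The counts of all kinesins (-5.5 peaks) and the mitotic share (-3.05 percentage points, exact permutation p = 0.667) then overlapped too. Control-only loci of all kinesins numbered 30 to 37 and knockdown-only loci 18 to 29 without 1 of the 4 libraries, which by construction loosens the calls. The mitotic control-only share was 22.2% to 28.2% without 1 library (28.41% to 30.1% over all loci) and 26.4% with a −log10 q of at least 20 (23.33% over all loci). The mitotic knockdown-only share was 21.7% with a fold of at least 4 (27.56% over all loci); knockdown-only loci then numbered 8, and genes with more peaks in knockdown 3 (6 to 8 without 1 library, the 8 without knockdown replicate 1); the cause was not tested. With the replicate number as a block (an exact sign-flip test of 2 pairs, which cannot go below p = 0.5), the differences were -14.5 peaks for all kinesins, -15 for mitotic and 8 for transport genes, p = 0.5 each, and -4.70 percentage points for the mitotic share; differences between replicates 1 and 2 of the groups had a correlation of 0.0322 over genes, so the numbers were not taken as pairs. Own-strand loci alone gave 15 of 124 control-only (12.1%) and 13 of 106 knockdown-only (12.3%). That filter could not test KIF21B, KIF27, KIFC2 and KIFC3, whose strands came from their own loci. The alternatives for counts of genes and for peaks of each role list were added after seeing the data. Calls in single genes depended on the settings. The knockdown-only calls of KIF3B, KIF21B and KIFC3 fell to 0 with a fold of at least 4 and with a −log10 q of at least 20. Those of KIF18B and KIF21B fell to 0 when peaks were joined only at a reciprocal overlap of at least 50%. KIF2A kept 2 to 4 knockdown-only loci in every run. The unknown depth limits what an absent peak can show.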
